A study of Mus musculus with 22 samples.

Results

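The 10 cytokine receptor genes described here (Il2ra, Il2rg, Il4ra, Il5ra, Il10ra, Il10rb, Il21r, Ifngr1, Ifngr2 and Il6st) were measured by RNA-seq in a murine B-cell leukemia with and without disruption of NFKBIE, the gene for the NF-κB inhibitor IκBε. They were chosen by name, as every transcript in the deposited count table that GENCODE assigns to these genes, and together they comprised 39 of 62492 transcripts and 10 of the 17023 genes that could be named. All 10 passed the filter on low counts in every comparison. The cells were TCL1-355 TKO, a leukemia line from the Eμ-TCL1 transgenic model, in which the Eμ enhancer drives TCL1 in B cells. Besides the transgene the line carries biallelic lesions in tumor suppressor genes, among them Cdkn2a and Cdkn2b, and every group shared these. NFKBIE-ko cells had been electroporated with Cas9 ribonucleoprotein aimed at exon 2 of Nfkbie, and NFKBIE-wt cells were the mock-treated counterpart. The genotypes were propagated apart for 21 days in C57BL/6 mice and then injected intraperitoneally into recipients of that strain, 2 to 3 months old and 5 per genotype. After 10 days cells were recovered from the spleen and the peritoneal cavity (PC), and 4 samples per genotype and site were sequenced. A further 3 samples per genotype came from cells that were taken from the spleens of 3 mice and cultured apart for 2 weeks, so the design comprised 6 groups and 22 samples. Because each genotype was propagated in its own mouse, an effect of that mouse and an effect of the genotype cannot be told apart.

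Cytokine receptors of this class have no enzymatic activity of their own. Ligand binding brings a ligand-specific chain together with a signaling chain that is often shared between receptors, and the Janus kinases attached to the tails then phosphorylate STAT factors that enter the nucleus. Il2rg encodes the common gamma chain, used by the receptors for IL-2, IL-4, IL-7, IL-9, IL-15 and IL-21, whereas Il2ra, Il4ra and Il21r encode ligand-specific chains of that family. Il5ra is the specific chain of the IL-5 receptor, a hallmark of B-1 cells and eosinophils, Il10ra and Il10rb form the IL-10 receptor, Ifngr1 and Ifngr2 the interferon-gamma receptor, and Il6st encodes gp130, the shared chain for IL-6, IL-11, IL-27, LIF and related cytokines. B cells receive survival, class-switch and differentiation signals through several of these receptors.

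Levels are given as counts-per-million (CPM) on library sizes normalized with the trimmed mean of M-values, and total counts lay between 24036763 and 26581304 per sample. The 12 B-cell marker genes were above 0 in all 22 libraries, with summed levels from 2386 to 4554 CPM. In the PC they summed to 4375 to 4554 CPM in NFKBIE-ko and to 3785 to 4047 CPM in NFKBIE-wt samples. There 6 of the 12 were called higher (adjusted p below 0.05, edgeR) and 2 lower, beside 22.5% and 20.9% of all genes. In the spleen the sums were 2386 to 2984 against 2631 to 3394 CPM, with 0 called higher and 1 lower, beside 2.32% and 3.16%. In 2 libraries the other cell types went against the label. The library labelled NFKBIE-wt spleen replicate 4 had 6.88 CPM over the erythroid list and 0.155 CPM over the granulocyte list, against 282 to 2039 and 63.4 to 408 CPM in the other NFKBIE-wt spleen libraries. Conversely, the library labelled NFKBIE-wt culture replicate 3 had 1436 and 209 CPM over these lists, whereas the other NFKBIE-wt cultures had 12.03 and 20.7 CPM over the erythroid and 3.78 and 0.154 CPM over the granulocyte list. Across 9794 genes, which are not independent replicates, the log-scale profile of the former correlated at 0.989 with the mean of the remaining NFKBIE-wt cultures and at 0.924 with its own group. The corresponding values for the latter were 0.986 with the remaining NFKBIE-wt spleens and 0.912 with its own group. The remaining NFKBIE-wt cultures, replicates 1 and 2, were not closely alike either. They correlated at 0.9505 with each other, and at 0.964 and 0.986 with the mean of the NFKBIE-ko cultures. Neither library was reassigned, and both are kept in values given without further remark. NFKBIE-ko spleen replicate 2 also had a low erythroid sum, 58.9 CPM against 627 to 902 CPM. Nfkbie itself was at 54.2 to 120 CPM in NFKBIE-ko and 70.9 to 124 CPM in NFKBIE-wt spleens, at 47.2 to 64.9 and 67.3 to 91.2 CPM in the PC, and at 48.2 to 59.9 and 54.4 to 141 CPM in culture. Small insertions or deletions leave most of a transcript countable, so these levels are no check of the edit.

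**Figure D1:**
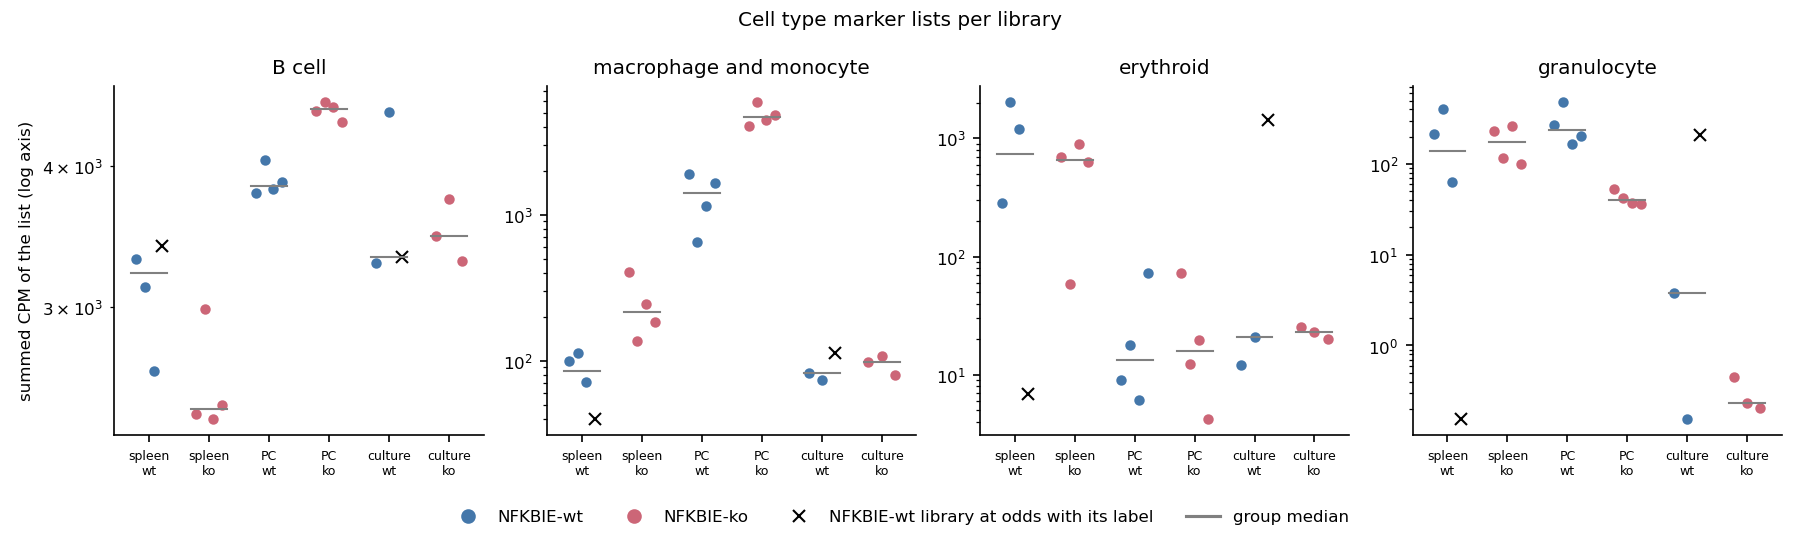
Summed CPM of 4 cell type marker lists (log axis) in each of the 22 libraries, by compartment and genotype; crosses are the 2 NFKBIE-wt libraries at odds with their labels and grey lines are group medians. The crosses lie at 6.88 CPM among the NFKBIE-wt spleens and at 1436 CPM among the NFKBIE-wt cultures on the erythroid list, and macrophage and monocyte genes sum to 4013 to 5916 CPM in the NFKBIE-ko PC.

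The spleen and PC samples were not purified, and host cells carry most of these receptors as well. In such bulk samples, fewer cells of a type and less RNA per cell cannot be told apart. The macrophage and monocyte list (16 genes) summed to 651 to 1903 CPM in the NFKBIE-wt PC and to 4013 to 5916 CPM in the NFKBIE-ko PC, and 13 of its 16 genes were called higher there in NFKBIE-ko. Of the T-cell list 9 of 14 tested genes were higher and 1 lower in the NFKBIE-ko PC, of the NK and cytotoxic list 7 of 10 were higher and 1 lower, and of the granulocyte list 6 of 8 were lower, where 22.5% of all genes tested were called higher and 20.9% lower. The part of these cells in the receptor differences described here was not tested. The T-cell list also summed to 180.5 to 202 CPM in the NFKBIE-ko cultures, where 7 or 8 of its 15 genes had no count. Its sum is thus not a measure of T cells alone. In the spleen the macrophage and monocyte list summed to 39.8 CPM in the doubted NFKBIE-wt library, to 71.4 to 113 CPM in the other NFKBIE-wt libraries and to 137 to 407 CPM in NFKBIE-ko samples, with 0 of 14 tested genes called, or 3 of 15 without the 2 libraries. The NK and cytotoxic list summed to 3.09 to 17.6 CPM in NFKBIE-wt and to 57.8 to 134 CPM in NFKBIE-ko spleens. Of its genes 3 of 9 were called higher and 0 lower, or 5 of 9 and 0 without the 2 libraries. Of the T-cell list 1 of 15 was higher and 0 lower, or 6 and 0 without them. Of all genes tested in the spleen 5.48% were called, or 12.2% without them. The part of T and NK cells in the spleen differences was not tested. In the NFKBIE-ko cultures the macrophage and monocyte list summed to 80.0 to 108 CPM, inside the 71.4 to 113 CPM of the NFKBIE-wt spleens other than the doubted one. In each of these cultures 7 or 8 of the 16 genes had no count, and C1qa was at 0 in all 3. The rest of the list was counted there, so the absence of C1qa does not show that such transcripts were absent.

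Compared per transcript length, Il2rg was the most abundant of the 10 genes in every group, with median levels from 214 to 405 TPM (counts per transcript length, scaled to the same total in each sample), and its range did not meet that of the next gene in any group. The lower ranks changed with the compartment. In the NFKBIE-ko cultures Il21r was next at a median of 142 TPM, followed by Il5ra at 57.3 TPM, and no neighbors in the order of all 10 genes overlapped. In the NFKBIE-ko PC Il4ra (103 TPM) and Ifngr1 (98.5 TPM) followed Il2rg with overlapping ranges, then Il21r at 29.96 TPM. The lowest gene was Il2ra in all 3 NFKBIE-ko groups, at 0.760 TPM in culture, 1.51 TPM in the spleen and 6.59 TPM in the PC. In all 3 NFKBIE-wt groups the lowest was instead Il10ra, at 2.95, 2.05 and 8.08 TPM. The alpha chain of the IL-2 receptor was thus the scarcest message of the set in NFKBIE-ko samples, and the ligand-binding chain of the IL-10 receptor in NFKBIE-wt samples. In the NFKBIE-wt cultures the ranges of the last 2 genes, Il2ra and Il10ra, overlapped.

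**Figure D2:**
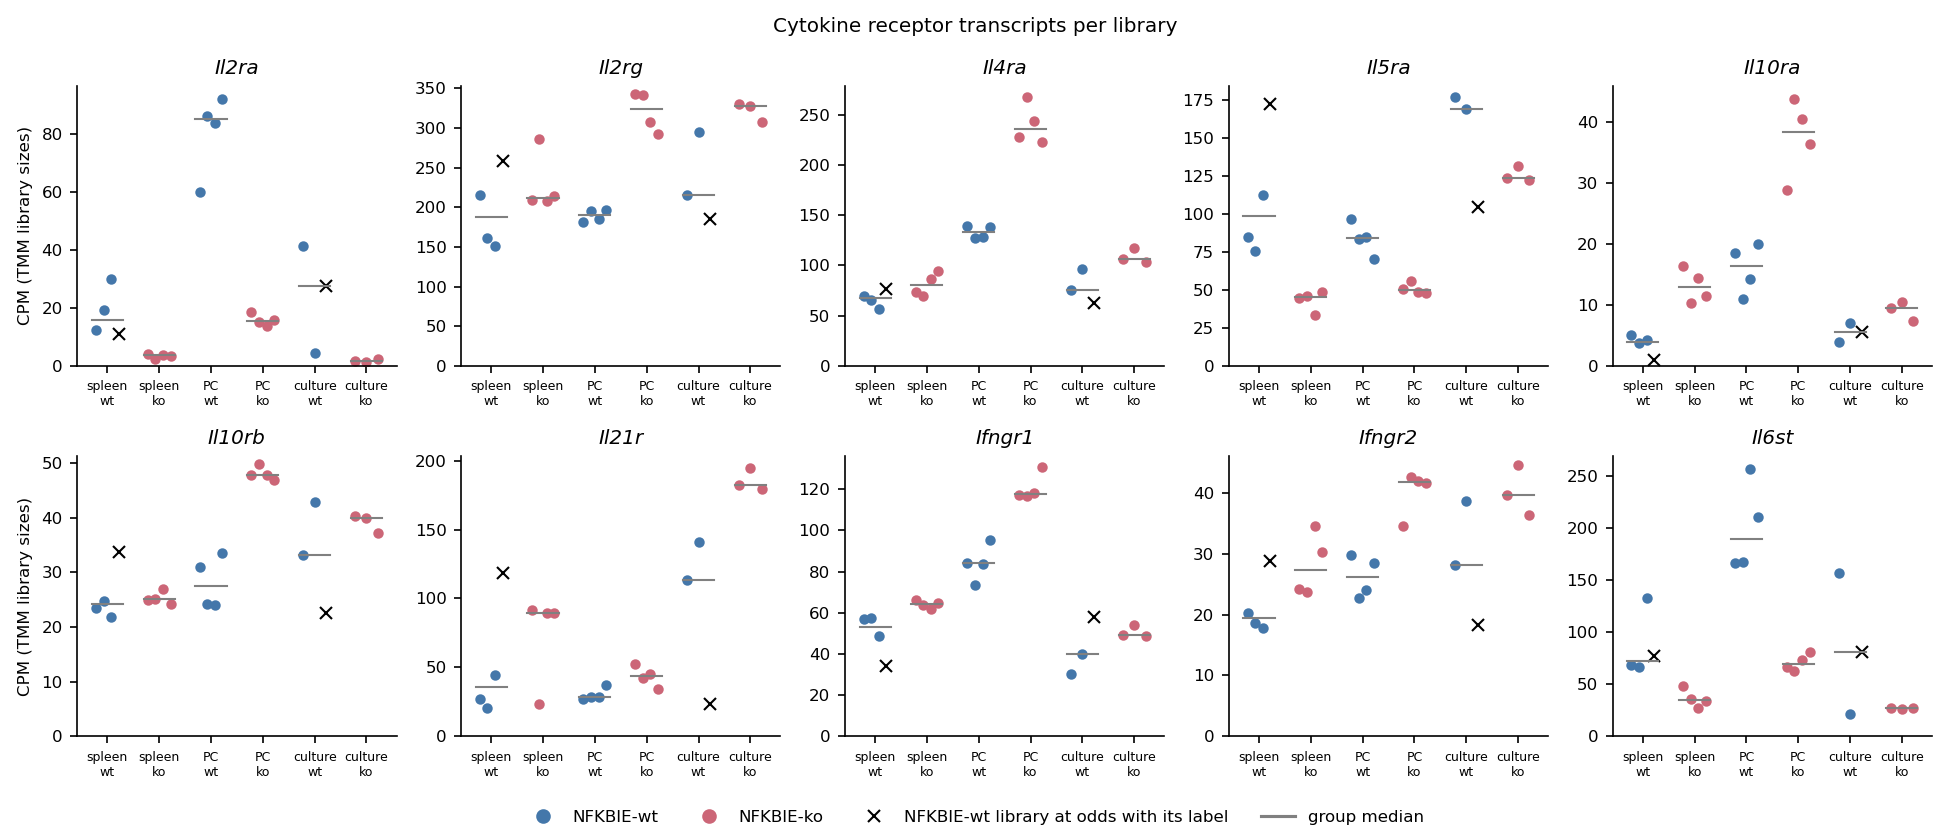
CPM of the 10 receptor genes in each library, by compartment and genotype (linear axes from 0); grey lines are group medians and crosses the 2 NFKBIE-wt libraries at odds with their labels. Il2ra peaks in the NFKBIE-wt PC (59.9 to 91.9 CPM), Il21r and Il5ra are high in cultures, and Il4ra, Il10ra, Il10rb and Ifngr1 peak in the NFKBIE-ko PC.

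As IκBε restrains NF-κB, the windows from 250 bases before to 50 bases after the annotated start of each gene were searched on both strands, in the GRCm39 genome, for the NF-κB (κB) consensus. It was present in 3 of the 10 receptor windows and in 10.0% of the windows of 14729 protein-coding genes in the table. The matches upstream of Il2ra, Il10ra and Ifngr2 are shown 5′ to 3′ on the strand of the gene, because these genes moved in opposite directions with the genotype; capitals mark the match. 
Il2ra, chr2:11647382-11647431, + strand: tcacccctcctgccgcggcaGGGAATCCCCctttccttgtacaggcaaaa
Il10ra, chr9:45180506-45180555, - strand: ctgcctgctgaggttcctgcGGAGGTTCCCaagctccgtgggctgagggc
Ifngr2, chr16:91343852-91343901, + strand: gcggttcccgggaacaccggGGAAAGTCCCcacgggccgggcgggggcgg
The matches lay at -216 to -207, -88 to -79 and -34 to -25 relative to the start, the first of them reading as a match on both strands. The Ifngr2 window also held the STAT6-type letters TTCNNNNGAA at -50 to -41, which do not overlap the κB match, and the Il5ra window held them 27 to 36 bases after the start, where 6.06% of all windows held them. The interferon-type STAT letters TTCNNNGAA were in 7.68% of all windows and in 0 of the 10. For Il6st the window was that of the transcript Il6st-203. The start of Il6st-201, to which more of the count was assigned, lies outside it and was not searched. These letter matches are a description of the sequence and not evidence of binding.

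In the PC all 10 receptor genes differed between the genotypes, 7 being higher and 3 lower in NFKBIE-ko samples, where 43.4% of the 12642 genes tested were called (22.5% higher and 20.9% lower). Calls here and below are adjusted p values below 0.05 over all genes tested, from edgeR's quasi-likelihood test. Of the 10 changes, 3 (Il2ra, Il6st and Il10ra) were beyond 1 on the log2 scale, which held for 13.4% of all genes. In 9 of the 10 the ranges of 4 against 4 samples did not overlap, which held for 41.6% of all genes tested. In the spleen 4 receptor genes were called, 1 higher and 3 lower, against a background of 5.48% of 12219 genes (2.32% higher and 3.16% lower). All 4 were beyond 1 on the log2 scale, as were 3.0% of all genes, and 5 receptor genes did not overlap between the groups, against 16.3% of all genes. Leaving out the doubted NFKBIE-wt spleen library gave 5 calls, against 12.2% of 12470 genes, and 6 genes without overlap, against 26.8%. In culture 0 receptor genes were called, where 5 of 11722 genes (0.0427%) passed. Without the doubted culture library it was again 0 by edgeR, against 0.076% of genes. In culture 5 receptor genes did not overlap between the groups, against 19.7% of all genes, and 7 did not without the doubted library, against 28.0%. At an unadjusted p below 0.05 there were 5 receptor genes and 1125 genes in all in culture, DESeq2 called Il2ra, and the fit of all 22 samples called Il2ra and Il6st. The median log2 fold change of the 10 genes was 0.56 in the PC, 0.24 in the spleen and 0.36 in culture, beside medians over all genes tested of -0.01, -0.01 and -0.02.

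**Figure D3:**
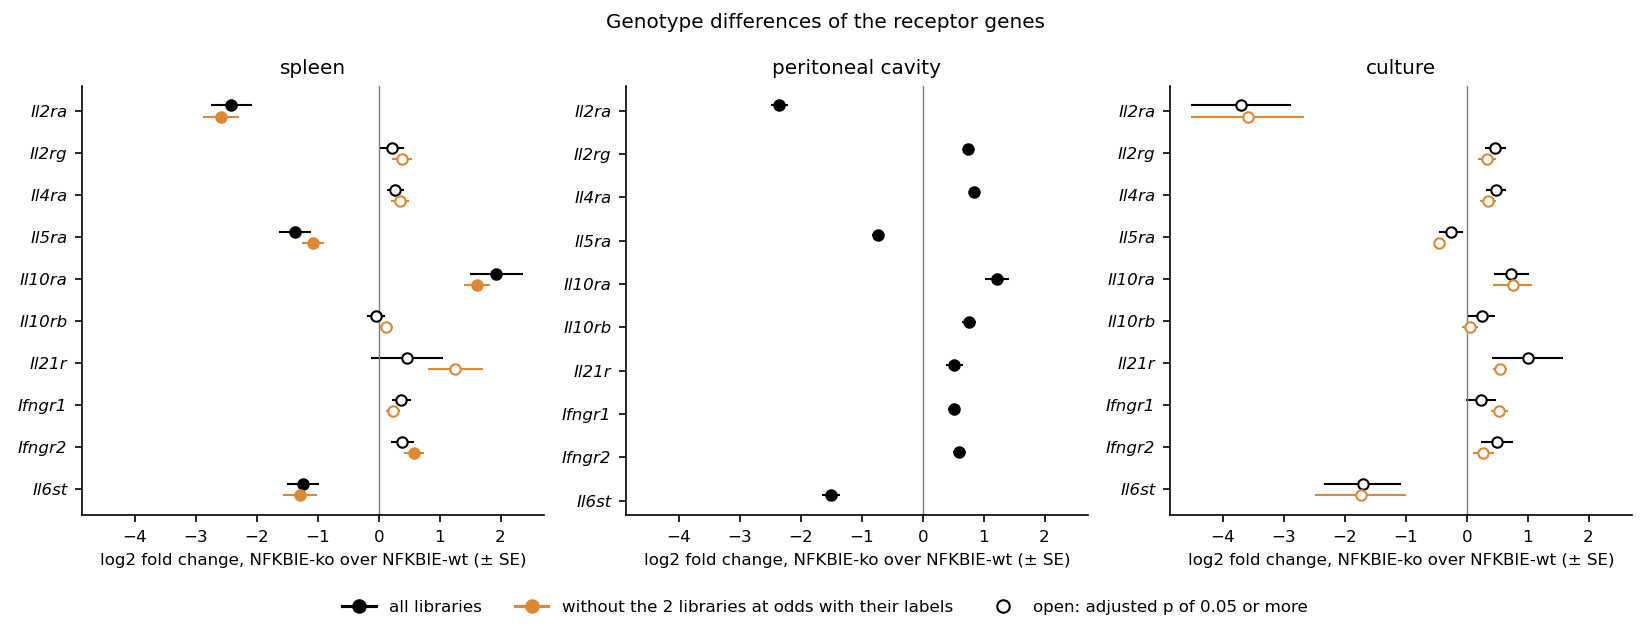
Log2 fold change (± SE) of the 10 receptor genes, NFKBIE-ko over NFKBIE-wt, in spleen, PC and culture, with all libraries (black) and without the 2 libraries at odds with their labels (orange); open points had an adjusted p of 0.05 or more. Il2ra, Il5ra and Il6st lie left of 0 in all 3 panels and Il10ra lies right of 0.

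Il2ra, the alpha chain that turns the IL-2 receptor into its high-affinity form, was lower in NFKBIE-ko samples by a factor of about 5 at both sites in vivo. In the spleen it was at 4.06, 2.44, 3.77 and 3.35 CPM in NFKBIE-ko replicates 1 to 4, and at 12.5, 19.1, 29.9 and 10.9 CPM in NFKBIE-wt replicates 1 to 4. In the PC it was at 18.6, 15.2, 13.7 and 15.8 CPM in NFKBIE-ko and at 59.9, 86.2, 83.7 and 91.9 CPM in NFKBIE-wt. The groups did not overlap at either site, although the level itself was several-fold higher in the PC in both genotypes. The difference was -2.42 ± 0.34 (log2, SE; adjusted p = 0.00678; 5.34-fold) in the spleen and -2.36 ± 0.14 (adjusted p = 1.5e-06; 5.12-fold) in the PC by edgeR's quasi-likelihood test. In culture NFKBIE-ko samples were at 1.76, 1.39 and 2.44 CPM, and NFKBIE-wt samples at 41.2, 4.26 and 27.5 CPM. No NFKBIE-ko culture reached the lowest NFKBIE-wt culture, but the NFKBIE-wt cultures ranged widely, and the difference of -3.71 ± 0.82 did not pass (adjusted p = 0.44). Without the doubted culture library, replicate 3 at 27.5 CPM, it was -3.60 ± 0.93 (adjusted p = 0.33). Leaving out 1 culture at a time gave -4.20 to -3.11, and the difference passed (adjusted p = 0.0185) without NFKBIE-wt replicate 2, which left replicate 1 and the doubted library as the NFKBIE-wt group. Without the 2 doubted libraries the spleen difference was -2.59 ± 0.30 (adjusted p = 0.00144). Il2ra was the one receptor gene whose spleen call held whichever single library was left out.

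The other chains of the common gamma family moved the opposite way in the PC. Il2rg was at 292 to 344 CPM in the NFKBIE-ko and 181 to 197 CPM in the NFKBIE-wt PC, a difference of 0.75 ± 0.07 (adjusted p = 1.9e-05). Il4ra, the chain that binds IL-4 and, with its partner, IL-13, was at 228, 268, 244 and 223 CPM in NFKBIE-ko and at 139, 128, 128 and 138 CPM in NFKBIE-wt, 0.84 ± 0.07 higher (adjusted p = 1.3e-05). In neither gene did the groups overlap. In the spleen the differences were 0.22 ± 0.19 for Il2rg (adjusted p = 0.546) and 0.27 ± 0.14 for Il4ra (adjusted p = 0.28). The ranges overlapped, at 208 to 287 against 151.5 to 258.5 CPM and at 69.5 to 94.0 against 56.1 to 76.3 CPM. Both NFKBIE-wt maxima were those of the doubted library, without which the NFKBIE-wt ranges were 151.5 to 215.6 and 56.1 to 69.7 CPM and still overlapped. Leaving out 1 library at a time gave spleen differences of 0.09 to 0.38 for Il2rg and 0.20 to 0.35 for Il4ra. In culture they were 0.47 ± 0.17 and 0.48 ± 0.16, each with an adjusted p of 0.516, although every NFKBIE-ko culture exceeded every NFKBIE-wt culture for both genes. Without the doubted culture library they were 0.34 ± 0.15 (adjusted p = 0.541) and 0.36 ± 0.13 (adjusted p = 0.48). Both passed, at 0.68 and 0.67 (adjusted p = 0.0292 and 0.0379), without NFKBIE-wt replicate 2, where the doubted library is 1 of the 2 NFKBIE-wt samples left.

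Il21r, whose ligand from helper T cells drives plasma cell differentiation, had the least even values. In the NFKBIE-ko spleens it was at 91.9, 23.7, 89.3 and 89.6 CPM, and in the NFKBIE-wt spleens at 27.2, 20.8, 44.4 and 119 CPM. The low NFKBIE-ko value belonged to replicate 2, with its low erythroid sum, and the high NFKBIE-wt value to the library labelled replicate 4. The difference was 0.47 ± 0.59 with all libraries (adjusted p = 0.689) and 1.26 ± 0.45 without the 2 doubted libraries (adjusted p = 0.106). In the PC Il21r was at 52.4, 42.5, 45.3 and 34.2 CPM in NFKBIE-ko against 27.0, 28.3, 28.5 and 36.9 CPM in NFKBIE-wt, a called difference of 0.52 ± 0.14 (adjusted p = 0.012) with overlapping groups. This call was lost in the 22-sample fit (adjusted p = 0.50). In culture the NFKBIE-ko samples (183, 194 and 179.5 CPM) all exceeded the NFKBIE-wt samples (113, 141 and 23.3 CPM), and the difference was 1.00 ± 0.58 (adjusted p = 0.552), or 0.55 ± 0.12 (adjusted p = 0.244) without the library labelled replicate 3.

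Il5ra, the IL-5-binding chain, was lower in NFKBIE-ko samples in vivo. In the spleen it was at 44.5, 46.3, 33.3 and 48.5 CPM in NFKBIE-ko and at 85.1, 75.8, 112 and 172 CPM in NFKBIE-wt. In the PC it was at 50.7, 55.6, 48.7 and 48.0 CPM in NFKBIE-ko and at 96.8, 83.5, 85.0 and 70.3 CPM in NFKBIE-wt. Neither pair of groups overlapped, and the highest spleen value was that of the doubted library. The differences were -1.38 ± 0.26 in the spleen (adjusted p = 0.0208), -1.08 ± 0.18 without that library (adjusted p = 0.00605), and -0.74 ± 0.10 in the PC (adjusted p = 1.6e-04). In culture Il5ra was at 124, 132 and 123 CPM in NFKBIE-ko and 177, 169 and 104.5 CPM in NFKBIE-wt, and the genotype difference was -0.26 ± 0.19 (adjusted p = 0.61). The value of 104.5 CPM is that of the doubted library, without which the groups did not overlap and the difference was -0.45 ± 0.06 (adjusted p = 0.124). Eosinophils also carry Il5ra, and the list of eosinophil, basophil and mast cell genes summed to at most 17.5 CPM in any library. In the PC that list summed to 11.8 to 17.5 CPM in NFKBIE-ko and to 7.19 to 10.7 CPM in NFKBIE-wt, with 1 of 3 tested genes called higher (Siglecf) and 1 lower, and its part in the Il5ra values was not tested.

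The chains of the IL-10 receptor were higher in the NFKBIE-ko PC. Il10ra, the ligand-binding chain, was at 28.8, 43.7, 40.4 and 36.3 CPM in NFKBIE-ko and at 18.5, 11.01, 14.3 and 19.9 CPM in NFKBIE-wt, a difference of 1.21 ± 0.20 (adjusted p = 8.7e-04; 2.32-fold). In the spleen it was at 16.4, 10.3, 14.4 and 11.4 CPM in NFKBIE-ko against 4.98, 3.72, 4.17 and 0.890 CPM in NFKBIE-wt. The groups stood apart at both sites, and the lowest of all 22 values was that of the library labelled spleen replicate 4. The spleen difference was 1.93 ± 0.44 (adjusted p = 0.0377), and 1.61 ± 0.22 (adjusted p = 0.00252) without it. In culture Il10ra was at 9.46, 10.5 and 7.27 CPM in NFKBIE-ko and 3.82, 6.95 and 5.51 CPM in NFKBIE-wt, without overlap, and the difference of 0.73 ± 0.28 did not pass (adjusted p = 0.516), nor did that of 0.76 ± 0.32 (adjusted p = 0.527) without the doubted library. The part of macrophage transcripts in the Il10ra difference in vivo was not tested. Il10rb, the accessory chain shared with the receptors for IL-22 and interferon-lambda, was at 47.8, 49.8, 47.9 and 46.9 CPM in the NFKBIE-ko PC and at 30.9, 24.2, 24.0 and 33.5 CPM in the NFKBIE-wt PC, 0.76 ± 0.11 higher (adjusted p = 4.0e-04). In the spleen the values coincided, at 25.01, 25.2, 26.9 and 24.3 CPM against 23.5, 24.9, 21.8 and 33.7 CPM, with a difference of -0.04 ± 0.15 (adjusted p = 0.903) that became 0.12 ± 0.11 (adjusted p = 0.55) without the doubted library. In culture it was 0.25 ± 0.22 (adjusted p = 0.645), and 0.05 ± 0.13 (adjusted p = 0.924) without the doubted library.

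Both chains of the interferon-gamma receptor were higher in the NFKBIE-ko PC. Ifngr1, which binds the ligand, was at 117, 117, 118 and 131 CPM against 84.3, 73.5, 83.9 and 95.2 CPM, 0.51 ± 0.09 higher (adjusted p = 9.1e-04). Ifngr2, which brings in the second kinase, was at 34.6, 42.5, 41.9 and 41.6 CPM against 29.9, 22.7, 24.1 and 28.5 CPM, 0.60 ± 0.11 higher (adjusted p = 0.00139). Neither gene's groups overlapped in the PC. In the spleen the differences were 0.37 ± 0.16 for Ifngr1 (adjusted p = 0.2) and 0.39 ± 0.19 for Ifngr2 (adjusted p = 0.267). When the doubted NFKBIE-wt spleen library was left out, Ifngr2 passed at 0.58 ± 0.16 (adjusted p = 0.0494) and Ifngr1 was at 0.24 ± 0.11 (adjusted p = 0.199). The spleen ranges of Ifngr1, 61.7 to 66.2 CPM in NFKBIE-ko and 34.3 to 57.7 CPM in NFKBIE-wt, did not overlap. In culture they were 0.23 ± 0.24 (adjusted p = 0.689) and 0.50 ± 0.26 (adjusted p = 0.539), with overlapping groups. Without the doubted culture library, which had 58.1 CPM of Ifngr1, all 3 NFKBIE-ko cultures (48.5 to 54.2 CPM) lay above the other NFKBIE-wt cultures (30.2 and 40.0 CPM) and the Ifngr1 difference was 0.54 ± 0.14 (adjusted p = 0.341), while that of Ifngr2 was 0.27 ± 0.17 (adjusted p = 0.636) and still overlapped.

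Il6st, the gp130 chain, was lower in NFKBIE-ko samples at both sites in vivo. In the PC it was at 66.2, 62.7, 72.8 and 81.3 CPM in NFKBIE-ko and at 166, 167, 257 and 211 CPM in NFKBIE-wt, a difference of -1.51 ± 0.15 (adjusted p = 3.9e-05; 2.85-fold). In the spleen it was at 48.5, 35.9, 26.9 and 34.3 CPM against 68.2, 66.4, 132.5 and 77.0 CPM, -1.25 ± 0.26 (adjusted p = 0.0298), and -1.29 ± 0.28 (adjusted p = 0.018) without the doubted library. The groups did not overlap at either site. In culture NFKBIE-ko samples were tightly grouped at 26.8, 26.1 and 26.7 CPM, and NFKBIE-wt samples spread over 157, 21.7 and 81.1 CPM, so the groups overlapped and the difference of -1.71 ± 0.63 did not pass (adjusted p = 0.516). Without the doubted library, at 81.1 CPM, it was -1.74 ± 0.75 (adjusted p = 0.534), again with overlap. Leaving out 1 culture at a time gave -2.16 to -0.97, and it passed at -2.16 (adjusted p = 0.0275) without NFKBIE-wt replicate 2, the sample that overlapped, which left replicate 1 and the doubted library.

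The spleen calls other than Il2ra depended on which libraries were used. Il2ra was the 1 gene called when replicate 3 of NFKBIE-wt, or replicate 1, 3 or 4 of NFKBIE-ko, was left out. Without NFKBIE-wt replicate 1 there were 2 (Il2ra and Il5ra), without NFKBIE-wt replicate 2 or NFKBIE-ko replicate 2 there were 3, and without NFKBIE-wt replicate 4 there were 5. No called gene changed direction in these fits. In those fits the lost adjusted p values were 0.0622 to 0.0735 for Il5ra, 0.0668 to 0.123 for Il10ra and 0.0512 to 0.0994 for Il6st.

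Whether the genotype difference itself changed with the compartment was tested as an interaction in the fit of all 22 samples. Il10rb was called: its genotype difference was larger in the PC than in the spleen by 0.81 ± 0.22 (log2; adjusted p = 0.0439), and by 0.63 ± 0.16 (adjusted p = 0.0194) without the 2 doubted libraries, where 4.9% and 8.23% of all genes were called. It was not beyond 1 on the log2 scale, as 1.88% of genes were. The call was lost in 14 of the 22 fits that left out 1 library, with adjusted p values from 0.0565 to 0.101, among them the fit without the doubted spleen library alone (0.66 ± 0.21, adjusted p = 0.083), and over all alternatives the adjusted p ranged from 0.0131 to 0.188. The other 9 genes had adjusted p values from 0.0604 to 0.98 for this difference, so the PC-only calls of Il2rg, Il4ra, Il21r, Ifngr1 and Ifngr2 are not shown to be particular to the PC. In this edgeR test 4 of the 10 had an unadjusted p below 0.05, as had 2760 of 13538 genes, and DESeq2 called 2 of the 10. Between spleen and culture 0 receptor genes were called by edgeR (lowest adjusted p = 0.0907; 2 of 10 at an unadjusted p below 0.05; DESeq2 called 1), where 0.443% of genes were called, and again 0 without the doubted libraries, where 0.938% were. Between PC and culture it was 0 with all libraries by edgeR and by DESeq2 (lowest edgeR adjusted p = 0.235; 1 of 10 at an unadjusted p below 0.05), where 4.9% of genes were called, and Il10rb without the 2 doubted libraries (0.72 ± 0.17, adjusted p = 0.0222; background 6.1%).

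In both genotypes 5 receptor genes were higher in the PC than in the spleen. In NFKBIE-wt samples the called genes were Il10ra (2.21 ± 0.34), Il2ra (2.15 ± 0.44), Il6st (1.22 ± 0.37), Il4ra (1.00 ± 0.12) and Ifngr1 (0.77 ± 0.16), against a background of 35.5% of 13538 genes called and 15.8% called higher. Of these, 3 were beyond 1 on the log2 scale, against 12.9% of genes. In NFKBIE-ko samples these were joined by Il10rb, Ifngr2 and Il2rg, 8 in all, where 51.2% of genes were called and 25.1% were called higher. Again 3 were beyond 1, against 20.2% of genes. The NFKBIE-ko differences were 2.21 ± 0.46 for Il2ra, 1.57 ± 0.13 for Il4ra, 1.50 ± 0.33 for Il10ra, 0.96 ± 0.37 for Il6st, 0.92 ± 0.16 for Il10rb, 0.91 ± 0.16 for Ifngr1, 0.51 ± 0.19 for Ifngr2 and 0.49 ± 0.16 for Il2rg, with adjusted p values from 1.2e-08 (Il4ra) to 0.0383 (Il6st). Among the 22 fits that left out 1 library, the NFKBIE-ko call of Il6st was lost in 6 (edgeR adjusted p 0.0535 to 0.103). That of Ifngr2 was lost in 5 (0.0514 to 0.0903). Each of these fits left out a library of the groups compared. No receptor gene was called lower in the PC with all libraries, and Il5ra passed in neither genotype. Without the 2 doubted libraries, Ifngr2 also passed in NFKBIE-wt (0.49 ± 0.15, adjusted p = 0.0159), and Il21r was called lower in the NFKBIE-ko PC (-0.76 ± 0.31, adjusted p = 0.041), so that 6 and 9 were called against 38.9% and 57.8% of genes. Macrophage and monocyte genes were higher in the PC than in the spleen too, from 71.4 to 113 up to 651 to 1903 CPM in NFKBIE-wt without the doubted library, and from 137 to 407 up to 4013 to 5916 CPM in NFKBIE-ko, and their part in these differences was not tested.

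**Figure D4:**
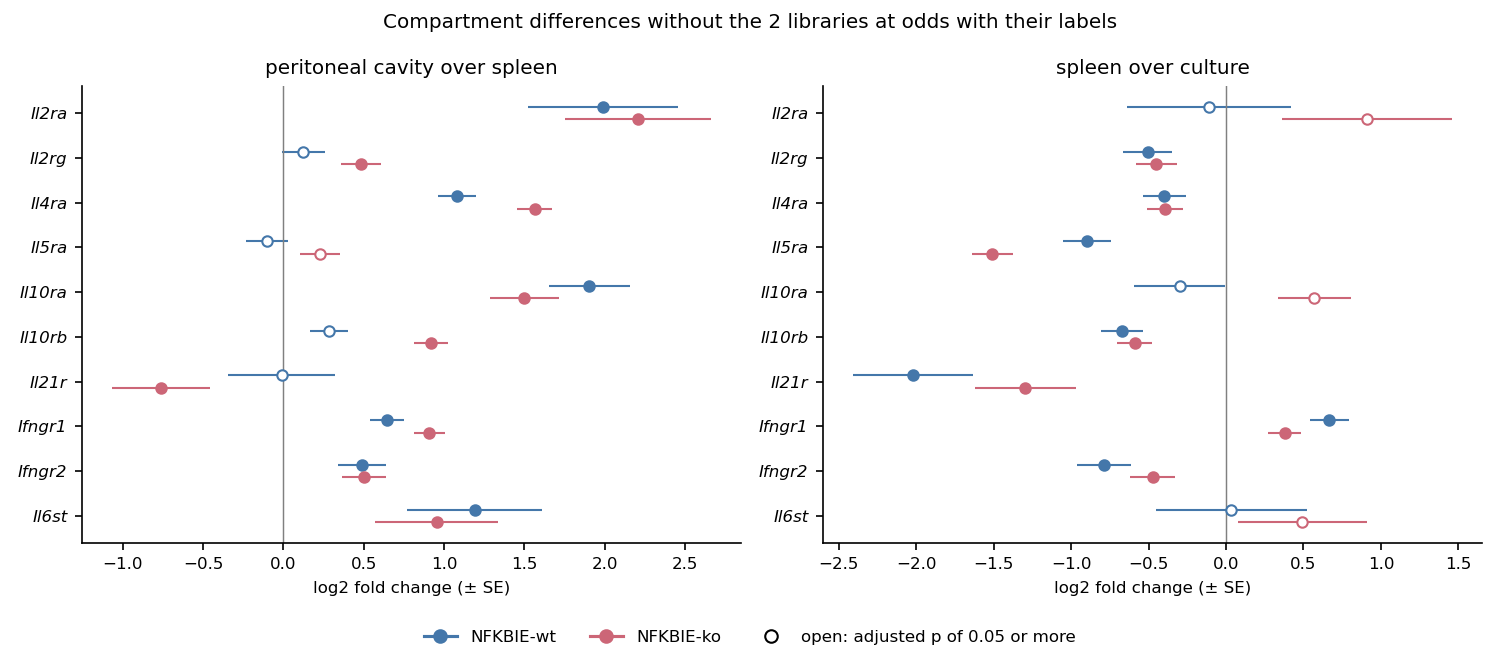
Log2 fold change (± SE) of the 10 receptor genes between compartments within each genotype, PC over spleen (left) and spleen over culture (right), without the 2 libraries at odds with their labels; open points had an adjusted p of 0.05 or more. Il2ra, Il4ra, Il10ra, Ifngr1, Ifngr2 and Il6st are higher in the PC in both genotypes, and Il21r and Il5ra are the lowest in the spleen relative to culture.

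Against culture, Il5ra and Il21r were lower in the PC in both genotypes, and Il5ra also in the NFKBIE-ko spleen. For Il5ra, NFKBIE-ko spleens lay below NFKBIE-ko cultures by -1.55 ± 0.22 (adjusted p = 2.3e-04), and the PC lay below them by -1.31 ± 0.22 (adjusted p = 8.6e-05), as did the NFKBIE-wt PC below its cultures by -0.84 ± 0.22 (adjusted p = 0.00656). In NFKBIE-wt spleens the Il5ra difference was -0.43 ± 0.22 (adjusted p = 0.646), and for Il21r the spleen differences were -1.33 ± 0.55 in NFKBIE-ko (adjusted p = 0.0715) and -0.81 ± 0.55 in NFKBIE-wt (adjusted p = 0.724). Il21r was lower in the PC than in culture by -2.09 ± 0.55 in NFKBIE-ko (adjusted p = 0.00451). In NFKBIE-wt it was lower by -1.62 ± 0.55 (adjusted p = 0.0299), with overlap. The NFKBIE-wt call was lost in 5 of the 22 fits that left out 1 library (adjusted p up to 0.152). All of these left out a library of the groups compared, namely PC replicate 1, 2 or 3 or culture replicate 1 or 2. The call held without the 2 doubted libraries (-2.03 ± 0.36, adjusted p = 2.1e-04). Conversely Il2ra, Il4ra, Il10ra, Ifngr1 and Il6st were higher in the PC than in culture in both genotypes, from 0.77 ± 0.13 for Il4ra in NFKBIE-wt to 3.09 ± 0.54 for Il2ra in NFKBIE-ko. Thus 7 genes were called in each genotype for this comparison, 5 higher and 2 lower. The background was 34.1% of genes in NFKBIE-wt (14.4% higher and 19.7% lower) and 48.0% in NFKBIE-ko (24.1% higher and 23.9% lower). Of the 7, 4 were beyond 1 on the log2 scale in NFKBIE-wt and 7 in NFKBIE-ko, against 13% and 20.8% of genes, and Il2rg, Il10rb and Ifngr2 did not pass. Without the 2 doubted libraries there were 8 in each, against 42.9% and 52.9%. In NFKBIE-wt, Il2rg (-0.38 ± 0.15, adjusted p = 0.0487) and Il10rb (-0.39 ± 0.13, adjusted p = 0.0218) then passed, and Il6st did not (1.22 ± 0.49, adjusted p = 0.0513). The NFKBIE-wt Il6st call was also lost in 4 of the 22 fits that left out 1 library, each a library of the groups compared (edgeR adjusted p 0.0506 to 0.0684). In NFKBIE-ko, Il10rb (0.33 ± 0.12, adjusted p = 0.023) was added.

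The spleen-to-culture comparison of NFKBIE-wt samples holds both doubted libraries. With all libraries 0 receptor genes were called (edgeR and DESeq2), 0 at an unadjusted p below 0.05, and 0 of 13538 genes in all passed, with 1061 at an unadjusted p below 0.05. Without both libraries 7 receptor genes were called, against 26.2% of 13760 genes. Il21r (-2.02 ± 0.39), Il5ra (-0.90 ± 0.15), Ifngr2 (-0.79 ± 0.18), Il10rb (-0.67 ± 0.14), Il2rg (-0.51 ± 0.16) and Il4ra (-0.40 ± 0.14) were lower in the spleen and Ifngr1 was higher (0.67 ± 0.13), with adjusted p values from 3.6e-04 to 0.04. Among NFKBIE-ko samples Il5ra, Il10rb (-0.63 ± 0.17), Il2rg (-0.49 ± 0.17) and Il4ra (-0.43 ± 0.13) were called lower in the spleen with all libraries, against 30.3% of genes, 13.4% being called lower. Of these, Il5ra was beyond 1, as were 13.5% of genes. Among the 22 fits that left out 1 library, the Il2rg call was lost in 6 (edgeR adjusted p 0.0646 to 0.0958) and the Il4ra call in 2 (0.0531 and 0.0843). Each of these fits left out a library of the groups compared. Leaving out the 2 NFKBIE-wt libraries changes the shared estimate of spread, and 7 NFKBIE-ko receptor genes then passed, against 39.0% of genes, the added ones being Il21r (-1.30 ± 0.32), Ifngr2 (-0.47 ± 0.15) and Ifngr1 (0.38 ± 0.10).

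Among the deposited transcripts, 6 of the 10 genes had over 90% of their median count in 1 protein-coding transcript, and Il4ra, Il5ra, Il21r and Il6st were split. Most of the Il4ra count was assigned to Il4ra-205, which GENCODE annotates as a target of nonsense-mediated decay, with a median share of 72.6% (63.4% to 77.8% over the 22 samples). The full-length Il4ra-201 had 26.8% (21.7% to 35.5%). Il4ra-205 has an additional exon of 114 bases at chr7:125171106-125171219 (GRCm39, + strand), in which the reading frame stops after 20 bases, so that its coding sequence is 690 bases long against 2430 bases. The last 30 coding bases before that exon are given in lower case and its first 20 bases, ending in the stop codon TGA, in capitals, since this junction decides whether the receptor has a membrane anchor.
Il4ra-205: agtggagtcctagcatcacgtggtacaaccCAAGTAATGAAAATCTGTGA
Mouse B cells are known to make a soluble IL-4 receptor from alternatively spliced transcripts with an early stop. Il4ra-205 and Il4ra-201 also differ at the 3′ end, at positions 125177139 and 125178687, and the per-transcript estimates do not show whether the exon or the end decided the assignment. Both transcripts were higher in the NFKBIE-ko PC, Il4ra-205 by 0.84 ± 0.08 and Il4ra-201 by 1.04 ± 0.14 (log2; adjusted p = 6.2e-04 and 0.00238 over all transcripts). The share of Il4ra-205 was 73.3% ± 2.73 in NFKBIE-ko and 75.8% ± 2.84 in NFKBIE-wt (SD, n = 4) in the PC, overlapping.

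Of the other split genes, Il6st was divided between Il6st-201 (median 53.2%) and Il6st-203 (44.7%), which have different first exons and the same coding length of 2751 bases. Both were lower in the NFKBIE-ko PC, by -1.63 ± 0.14 (adjusted p = 4.1e-04) and -1.24 ± 0.21 (adjusted p = 0.00642). In the spleen, Il6st-203 was lower by -1.53 ± 0.18 (adjusted p = 0.0213), and Il6st-201 by -0.96 ± 0.34, which did not pass (adjusted p = 0.329). Il5ra-202 held a median of 83.5% of the Il5ra count, and the short Il5ra-203, with 228 coding bases, 14.8%. Il21r-201 held 73.7% of the Il21r count, Il21r-202, which skips an exon of 97 bases, 18.2%, and Il21r-203, annotated as a decay target, 7.29%. Transcripts of a gene share most exons, so these shares are estimates and were not tested between groups.

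**Figure D5:**
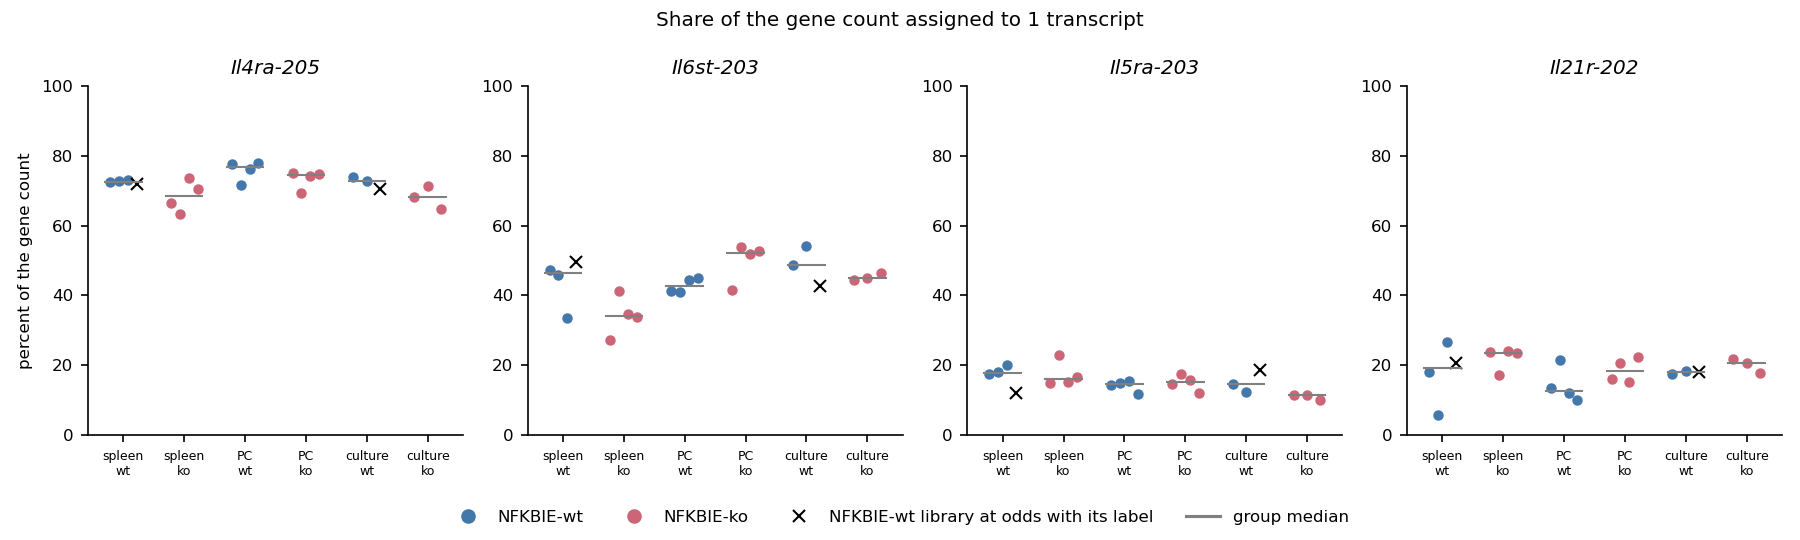
Percent of the gene count assigned to 1 transcript in each of the 22 libraries for Il4ra-205, Il6st-203, Il5ra-203 and Il21r-202, by compartment and genotype (linear axis, 0 to 100%); grey lines are group medians. Il4ra-205 lies between 63.4% and 77.8% in all libraries.

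The other genes of these pathways were counted from lists of related receptors, ligands, kinases, STAT factors, inhibitors and target genes. In the PC, 17 of 22 tested partner and related receptor chains differed with the genotype, 13 higher and 4 lower in NFKBIE-ko, beside the background of 43.4%. The prolactin receptor Prlr fell from 30.3 ± 8.76 to 1.69 ± 0.521 CPM (SD, n = 4; log2 -4.17 ± 0.26, adjusted p = 2.8e-06) and the G-CSF receptor Csf3r, a granulocyte gene, by -1.35 ± 0.19 (adjusted p = 3.2e-04). The IL-11 receptor chain Il11ra1 rose by 1.50 ± 0.21 (adjusted p = 2.7e-04), and Il9r, which pairs with the common gamma chain, rose from 45.4 ± 8.03 to 110.5 ± 9.14 CPM (1.27 ± 0.12, adjusted p = 1.9e-05). In the spleen 1 of 23 was called, against 5.48% of all genes, the IL-27 receptor chain Il27ra (0.91 ± 0.15, adjusted p = 0.0123). Without the doubted library 5 of 24 were called higher and 1 lower, against 12.2% of all genes. Il9r then stood at 163 ± 4.57 CPM in NFKBIE-ko (n = 4) and 27.6 ± 1.77 CPM in NFKBIE-wt spleens (n = 3), 2.56 ± 0.11 higher (adjusted p = 1.0e-05), and Prlr was lower there too, at 0.116 ± 0.053 against 5.77 ± 3.82 CPM (adjusted p = 6.9e-04). Prlr passed the low-count filter in these spleen samples through NFKBIE-wt, so it could only come out lower in NFKBIE-ko. In culture 0 of 14 chains were called by edgeR with all libraries.

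Of the ligands, Il10 was the most abundant, with its highest mean of 60.2 ± 19.2 CPM in the NFKBIE-ko spleens. Next were Ebi3, a subunit of IL-27, at 14.8 ± 1.31 CPM in NFKBIE-ko cultures (n = 3), Il15 at 11.1 ± 1.95 CPM and Osm at 10.9 ± 1.99 CPM, both in the NFKBIE-ko PC (n = 4), and Clcf1 at 5.94 ± 1.40 CPM in the NFKBIE-wt PC. Messages for IL-2, IL-5 and IL-21, ligands of 3 of the described receptors, did not exceed 0.383 CPM in any library. The highest group means of Il4 and Ifng were 1.28 ± 0.0735 CPM in NFKBIE-ko cultures and 2.68 ± 1.44 CPM in NFKBIE-ko spleens. In the PC 4 of 9 tested ligands were higher in NFKBIE-ko, where 22.5% of all genes were. They were led by Lif (1.07 ± 0.15 against 0.141 ± 0.0686 CPM, adjusted p = 2.0e-04) and Ebi3 (11.8 ± 0.724 against 3.54 ± 0.416 CPM, adjusted p = 4.7e-06). Lif passed the low-count filter through its NFKBIE-ko samples, so it could only come out higher, and the count of 4 includes it. In the spleen Il15 was higher by 1.13 ± 0.24 (adjusted p = 0.0298), the 1 of 8 called, against 5.48% of all genes, and 3 of 8 were called higher without the doubted library, against 12.2% called.

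The counts for the PC in this paragraph stand beside 22.5% of all genes called higher and 20.9% lower, and those for the spleen beside 2.32% and 3.16%. Of the 4 Janus kinases 3 were higher in the NFKBIE-ko PC, Jak2 by 0.51 ± 0.10 (adjusted p = 0.00155) and Tyk2 by 0.36 ± 0.08 (adjusted p = 0.00277) leading, and 0 were called in the spleen or in culture by edgeR. Of the 7 STAT genes 4 were higher in the NFKBIE-ko PC, among them Stat4 (1.20 ± 0.26, adjusted p = 0.00341). In the spleen Stat6, the effector of the IL-4 receptor, was higher by 0.72 ± 0.12 (adjusted p = 0.0132). Of the 12 SOCS and PIAS inhibitors 2 were higher in the NFKBIE-ko PC, Socs5 (0.72 ± 0.16) and Socs3 (0.55 ± 0.18), and 2 lower, Socs2 (-1.71 ± 0.12) and Pias3 (-0.32 ± 0.08). Of the 19 cytokine-induced genes tested, 5 were higher and 4 lower in the PC, and 4 higher and 1 lower in the spleen. Cxcl9 and Gbp2, which interferon-gamma induces, led those higher at both sites. With its low NFKBIE-wt values Cxcl9 passed the low-count filter through the NFKBIE-ko samples, so it could only come out higher. Cxcl9 was at 3.99 ± 2.19 against 0.0416 ± 0.0481 CPM in the PC and at 5.56 ± 2.97 against 0.211 ± 0.193 CPM in the spleen, and Gbp2 was at 153 ± 106 against 45.9 ± 9.08 CPM and at 50.5 ± 6.77 against 16.1 ± 5.10 CPM (SD, n = 4). Those lower were led by Ighg1 (12.7 ± 0.537 against 103 ± 10.7 CPM) and Junb in the PC, and in the spleen the 1 called lower was Prdm1 (20.8 ± 6.51 against 84.9 ± 47.2 CPM), a regulator of plasma cell differentiation. Without the doubted spleen library the differences in the spleen were 0.81 ± 0.12 for Stat6, 4.29 ± 0.58 for Cxcl9, 1.87 ± 0.18 for Gbp2 and -2.12 ± 0.40 for Prdm1, each still called, and of the 19 cytokine-induced genes 5 were higher and 2 lower, where 12.2% of all genes were called. Of the 4 Janus kinases 1 was then called higher in the spleen. Macrophages also make Cxcl9, and the part of host cells in these values was not tested.

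Likeness of pattern was described by Pearson's r of log2(CPM + 1) over the 22 samples, which share the 6 groups, among 9549 protein-coding genes. The nearest gene was Slc30a9 for Il2ra (r = 0.962) and for Il6st (0.936), Rab18 for Il2rg (0.955), Gpi1 for Il4ra (0.974) and Man1a2 for Il5ra (0.932). It was Sirpa, a myeloid surface gene, for Il10ra (0.962), Slc43a2 for Il10rb (0.942), Synj2 for Il21r (0.954), Glul for Ifngr1 (0.982) and Snx20 for Ifngr2 (0.959). The next in order were Kdelr1, Tecpr1, Gnpda1, Fam234a, Zfp275, Pitpnm1, Dennd11, Tmem158, Neurl3 and Marcks, for the genes as just listed.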

How the data were processed

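RNA of 22 samples was sequenced as paired reads from TruSeq libraries on an Illumina NovaSeq. The authors estimated transcript abundance with Salmon 1.8 on GRCm39; CASAVA and DESeq2 are also named in the submitters' processing notes. The deposited values were estimated counts per transcript, not normalized, with replicates kept apart; 69.5% were not whole, and every one of the 62492 transcripts was above 0 in at least 5 samples, so genes seen in fewer samples were not analysed here. Here counts were rounded and 62147 transcripts were named from GENCODE vM39 and summed into 17023 genes; 0.619% of counts had no match and were left out. Such counts share reads between similar transcripts.

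Groups were taken from sample titles. Genotypes were compared within each compartment with edgeR 4.0.16 (R 4.3.3; quasi-likelihood test, robust, filterByExpr, trimmed mean of M-values, Benjamini-Hochberg over all genes tested); compartments and interactions came from 1 fit over all 22 samples. Values after ± in log2 differences are standard errors. TPM are counts per transcript length, scaled to the same total in each sample. The cultures came from 3 mice and were kept apart, and 4 samples per site came from each group of 5 mice, with no label tying a sample to an animal. The spleen and PC samples of a genotype thus came from the same 5 mice and were treated as independent. The p values measure the spread between samples. Besides Nfkbie and cell type markers, the genes named were the 10 receptors, the 2 called genes with the largest change in each direction per list and comparison (ligands also by highest CPM), and the 2 genes most like each receptor. Of these, 1 is not reported here. The members, lists and tests were chosen with earlier results of these data known. The script was tested on simulated data. Alternatives were DESeq2 1.42.0 and its size factors, other filters and transcript sets, other sample sets, a replicate block and each library left out.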

Additional observations from a re-analysis of the deposited data

Results flagged for a closer look

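In 40 groups of 4 samples (10 receptor genes in 4 in vivo groups), a highest or lowest sample stood far from the others in 6, where chance gives about 1 in 20 groups. In NFKBIE-ko spleen, replicate 2 had the highest Il2rg (287 CPM, the others 208 to 214) and the lowest Il21r (23.7 CPM, the others 89.3 to 91.9), and the same library had the low erythroid sum. In the NFKBIE-wt PC, replicate 4 had the highest Il21r (36.9 CPM). In the NFKBIE-ko PC, replicate 4 had the highest Ifngr1 (131 CPM) and replicate 1 the lowest Ifngr2 (34.6 CPM). In NFKBIE-wt spleen, replicate 3 had the highest Il6st (132.5 CPM). The genotype difference of Il10rb was larger in the PC than in the spleen by 0.81 (log2; interaction in edgeR, adjusted p = 0.0439); in the PC 4 of 4 NFKBIE-ko samples exceeded every NFKBIE-wt sample, and in the spleen the groups overlapped.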

How the results depend on the processing

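Over 78 followed single-gene differences, 46 were called, and of their 1218 alternatives 1128 kept call and direction, 90 lost the call and 0 changed direction. The uncalled Il10rb difference in the spleen ranged from -0.112 to 0.117 when 1 library was left out, being 0.117 without NFKBIE-wt spleen replicate 4, alone or with the other doubted library. That between NFKBIE-wt PC and culture ranged from -0.435 to 0.0145. Leaving out 1 library gave, for receptor genes called between the genotypes, 1 to 5 in spleen, 10 to 10 in PC and 0 to 4 in culture; for PC against spleen 5 to 6 (NFKBIE-wt) and 6 to 8 (NFKBIE-ko); for spleen against culture 0 to 1 and 2 to 6; for PC against culture 5 to 7 and 7 to 7; and for the interactions 0 to 2, 0 to 2 and 0 to 1. With the transcript of highest mean CPM alone, spleen fell from 4 to 1, NFKBIE-wt PC against culture from 7 to 4, NFKBIE-ko spleen against culture from 4 to 1 and the PC-spleen interaction from 1 to 0. DESeq2 gave 1 in culture, 2 for the PC-spleen and 1 for the spleen-culture interaction. The 22-sample fit gave 2 in culture. Fitting only the compared groups gave 4 for NFKBIE-wt PC against culture and 8 for NFKBIE-ko spleen against culture. Requiring an absolute log2 change above 1 left 3 in PC, 3 and 3 for PC against spleen, 4 for NFKBIE-wt PC against culture, 1 for NFKBIE-ko spleen against culture and 0 interactions; without a low-count filter the PC-spleen interaction count was 0. Without both doubted libraries, spleen against culture rose to 7 in each genotype and the PC-culture interaction to 1. The replicate block gave 1 in spleen and 0 for NFKBIE-wt PC against culture, on numbers that no label ties to an animal. Same-numbered deviations of the genotypes correlated at -0.32 to 0.04 in spleen, -0.21 to 0.05 in PC and -0.01 to 0.17 in culture. Those of spleen and PC correlated at -0.16 to 0.21 in NFKBIE-wt and at -0.05 to 0.22 in NFKBIE-ko. For differently numbered samples the values were -0.44 to 0.39 and -0.34 to 0.18. The cause of these changes in the counts of calls was not tested. The biological coefficient of variation was 0.296 in spleen, 0.148 in PC and 0.284 in culture; with 3 or 4 samples a group, a p that misses the threshold does not show equality.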

Other observations

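Among the related genes, several differed between the compartments in both genotypes. The spleen and PC samples held host cells, whose part in the differences of this section was not tested. Socs3, a feedback inhibitor of gp130 signaling, was higher in the PC than in the spleen (42.1 against 9.21 CPM in NFKBIE-wt and 62.4 against 10.7 CPM in NFKBIE-ko; log2 2.19 and 2.55, adjusted p = 0.043 and 0.014, edgeR, means of 4 samples), whereas Socs2, induced through STAT5, was lower (50.9 against 187 and 15.7 against 70.2 CPM; -1.88 and -2.16). Without the 2 doubted libraries the NFKBIE-wt spleens had a Socs2 mean of 115 ± 11.3 CPM in place of 187 ± 143.5 CPM (SD, n = 3 and 4), which brought the NFKBIE-wt difference to -1.17, and the Socs3 difference in NFKBIE-wt was 1.795 (adjusted p = 0.00192, edgeR). Jak3, the kinase bound to the common gamma chain, was higher in the PC (0.79 and 1.07), as was Stat3 (0.68 and 0.79), while Il10 and the transcription factor Irf4 were lower (-1.18 and -1.24 for Il10, -1.32 and -1.53 for Irf4). Of the 24 tested partner and related receptor chains, 11 were higher and 0 lower in the PC in NFKBIE-wt and 12 higher and 1 lower in NFKBIE-ko, where 35.5% and 51.2% of all genes were called. Without the 2 doubted libraries these counts were 15 higher and 1 lower in NFKBIE-wt and 15 higher and 4 lower in NFKBIE-ko, beside 38.9% and 57.8% of all genes.

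Against culture, NFKBIE-ko samples in the PC differed in 19 of 24 of these chains, 17 being higher and 2 lower, where 24.1% of all genes were called higher and 23.9% lower. The low-count filter over all 22 samples kept these 24 chains, whereas 14 chains of the list passed it in the cultures alone. A chain kept only through in vivo samples had little or no room to come out lower in the PC. The percentages over all genes do not adjust the count of 17 for such chains. Lifr and Crlf2 had no count in any of the 3 NFKBIE-ko cultures and means of 20.4 and 12.4 CPM in the NFKBIE-ko PC. The macrophage and monocyte list summed to 80.0 to 108 CPM in these cultures and to 4013 to 5916 CPM in the NFKBIE-ko PC. Il9r (110.5 against 464 CPM) and Il2rb (27.6 against 103 CPM), partners of the common gamma chain, were lower than in culture (-2.07 and -1.90, adjusted p = 0.018 and 0.004). Ighg1, which IL-4 can induce, was at 5.66 CPM in NFKBIE-ko spleens and 50.7 CPM in NFKBIE-ko cultures (-3.16, adjusted p = 0.0054).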
